A study of Arabidopsis thaliana with 12 samples.

Results

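The 7 genes described here make up the phosphate sensing circuit of the Arabidopsis root tip: LPR1, LPR2 and PDR2, which act at the cell wall and in the secretory pathway, STOP1 and its target ALMT1, and ALS3 and STAR1. They were taken by gene identifier from a table of 25941 genes, and all 7 had a row and passed the minimum level for testing. The libraries came from roots of wild-type Arabidopsis thaliana (Col-0) and of OX3, 1 line that overexpresses GmVP2, a soybean vacuolar proton pyrophosphatase, so line and transgene cannot be told apart. Seedlings of both genotypes grew on solid MS medium for 10 days with phosphate at 1250 µM, called normal, or 6.25 µM, called low. There were 3 libraries in each of the 4 groups, numbered 2, 3 and 4, except for OX3 at low phosphate, with 1, 2 and 4. The unit is RPKM, reads scaled to exon length and to the library total, as deposited. Calls of changed genes rest on limma, run on log2(RPKM + 1) for every tested gene, with an adjusted p (Benjamini-Hochberg) below 0.05.

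When the root tip of Arabidopsis meets low phosphate in the presence of iron, growth of the primary root stops. The ferroxidase LPR1 oxidises iron in the wall, reactive oxygen and callose build up, and the meristem is lost; the endoplasmic reticulum ATPase PDR2 restrains LPR1. In parallel the zinc finger factor STOP1 accumulates in the nucleus and activates ALMT1, a channel that exports malate, and malate in the wall promotes the iron reaction; ALS3 and STAR1, which form an ABC transporter complex, keep STOP1 low. Much of this regulation is known to act on protein amount, location and activity, which RNA levels do not measure.

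The promoters of the 4 genes of the group that fell in both genotypes are shown, since these moved together. Each is the 250 bases before the annotated gene start in the RefSeq TAIR10.1 assembly, read 5′ to 3′ on the gene's strand, and capitals mark a match to a searched motif.
STOP1 promoter, chr1:12550089-12550338, plus strand: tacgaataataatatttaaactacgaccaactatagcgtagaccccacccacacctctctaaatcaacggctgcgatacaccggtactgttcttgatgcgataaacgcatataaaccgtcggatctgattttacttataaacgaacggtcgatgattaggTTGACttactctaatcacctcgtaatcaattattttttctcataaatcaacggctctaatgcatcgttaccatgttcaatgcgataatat
ALMT1 promoter, chr1:2658352-2658601, plus strand: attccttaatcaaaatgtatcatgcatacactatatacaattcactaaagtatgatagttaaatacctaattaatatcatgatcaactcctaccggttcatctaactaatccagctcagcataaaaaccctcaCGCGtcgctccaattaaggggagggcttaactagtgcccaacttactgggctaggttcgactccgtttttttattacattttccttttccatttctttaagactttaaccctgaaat
ALS3 promoter, chr2:15668881-15669130, plus strand: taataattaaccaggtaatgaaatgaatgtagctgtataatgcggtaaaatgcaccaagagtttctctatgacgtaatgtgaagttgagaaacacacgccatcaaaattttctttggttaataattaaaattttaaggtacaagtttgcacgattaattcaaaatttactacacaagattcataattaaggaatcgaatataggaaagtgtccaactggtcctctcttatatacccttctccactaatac
STAR1 promoter, chr1:25477420-25477669, plus strand: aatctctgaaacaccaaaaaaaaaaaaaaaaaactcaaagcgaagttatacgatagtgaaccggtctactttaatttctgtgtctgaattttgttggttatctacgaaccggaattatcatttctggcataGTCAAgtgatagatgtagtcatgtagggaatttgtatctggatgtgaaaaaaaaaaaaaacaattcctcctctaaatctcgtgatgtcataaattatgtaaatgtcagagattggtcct
3 motifs were searched on both strands in the 7 promoters. The CGCG core of CAMTA factors lay in the ALMT1 promoter, starting 117 bases before the gene start, and 10.6% of 23942 promoters of the same length held it. The W-box core TTGAC of WRKY factors lay 90 bases before the start of STOP1, and as its reverse complement GTCAA 119 bases before the start of STAR1, against 45.3% of all promoters. The phosphate starvation motif GNATATNC of PHR1 had no match in any of the 7 windows, and 5.48% of all promoters held it. A match is only these letters in this window, and ALS3, LPR1, LPR2 and PDR2 held none of the 3 motifs.

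Library totals recovered from the RPKM values ran from 17670350 to 20418542 reads. IPS1, a non-coding RNA induced by phosphate starvation, rose from 2.53 ± 0.31 to 1190 ± 179 RPKM (SD, n = 3) in the wild type and from 3.09 ± 0.66 to 1489 ± 63 RPKM in OX3, which checks the treatment labels. Low phosphate altered much of the transcriptome: 46.0% of 18910 tested genes were called in the wild type, 24.3% higher and 21.6% lower, and 47.0% in OX3, 23.3% higher and 23.8% lower. OX3 differed from the wild type in 3.10% of genes at normal phosphate and in 0.0423% at low phosphate, and for 0% of genes was the response to phosphate called different between the genotypes (1351 genes at an unadjusted p below 0.05; limma voom called 0, with 1271). The count at normal phosphate, 587 genes, fell to 8 without replicate 4 of OX3 at normal phosphate and to 66, 39 and 37 without wild-type replicate 3, wild-type replicate 4 or OX3 replicate 3 of that treatment. It rose to 1059, 1047 and 1032 without wild-type normal replicate 2, wild-type low replicate 2 or OX3 low replicate 4, and was 369 and 347 without replicate 2 of OX3 at normal or at low phosphate. The count at low phosphate, 8 genes, was 196 without wild-type low replicate 2. It was 5 without wild-type normal replicate 2 or 4 or any of the 3 OX3 normal libraries, 4 without wild-type low replicate 4 or OX3 low replicate 1, and 3 without OX3 low replicate 4, which also brought the difference of responses to 1 gene.

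Some cell type markers moved with the treatment. Of 10 root tip markers 7 were higher in low-phosphate roots of the wild type and 3 in those of OX3. Among all tested genes 24.3% and 23.3% were higher, so the OX3 count is near that share. The summed level of the root tip markers was 29.7 to 38.5 RPKM at normal and 44.1 to 63.9 RPKM at low phosphate in the wild type. In OX3 it was 35.5 to 42.1 and 42.6 to 48.8 RPKM. All 4 root hair and endodermis markers were higher in both genotypes. Of 4 shoot photosynthesis genes 3 were lower at low phosphate in both genotypes, beside 21.6% and 23.8% of all tested genes, and 1 was higher in the wild type. At normal phosphate 3 were higher in OX3, where 3.10% of all tested genes were called. The summed level of the shoot genes was 349 to 411 RPKM in the wild type at normal phosphate and 134 to 157 at low phosphate. In OX3 it was 563 to 592 and 157 to 188 RPKM. The OX3 root tip count was 1 without normal replicate 2 or 4, the wild-type root hair and endodermis count was 2 without replicate 2 of either treatment, and the genotype count of shoot genes was 0 without OX3 normal replicate 4. No root tip or shoot marker was at 0 in every library of a group. In whole roots, fewer cells of a type and less RNA per cell cannot be told apart, and the part of these shifts in the results for the 7 genes was not tested.

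Across all 4 groups the malate channel ALMT1 was the most abundant of the 7 transcripts and the ferroxidase LPR1 the least. On the RPKM scale, which is per length, the order in the wild type at normal phosphate was ALMT1 at 139 ± 7.2, STOP1 at 87.4 ± 3.9, STAR1 at 45.3 ± 2.3, PDR2 at 28.5 ± 1.1, LPR2 at 23.3 ± 0.75, ALS3 at 18.2 ± 0.52 and LPR1 at 8.89 ± 0.94 (SD, n = 3), and no neighbours in this order had overlapping libraries. The order was the same in both OX3 groups. At low phosphate in the wild type STAR1, at 28.1 ± 0.72 RPKM, came below PDR2, at 29.4 ± 0.93 RPKM, and the libraries of these neighbours overlapped. The fewest reads lay behind ALS3, a short gene, with 241 to 343 in a library, and LPR1, with 261 to 465. Relative counting error is therefore largest for these among the 7.

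**Figure D1:**
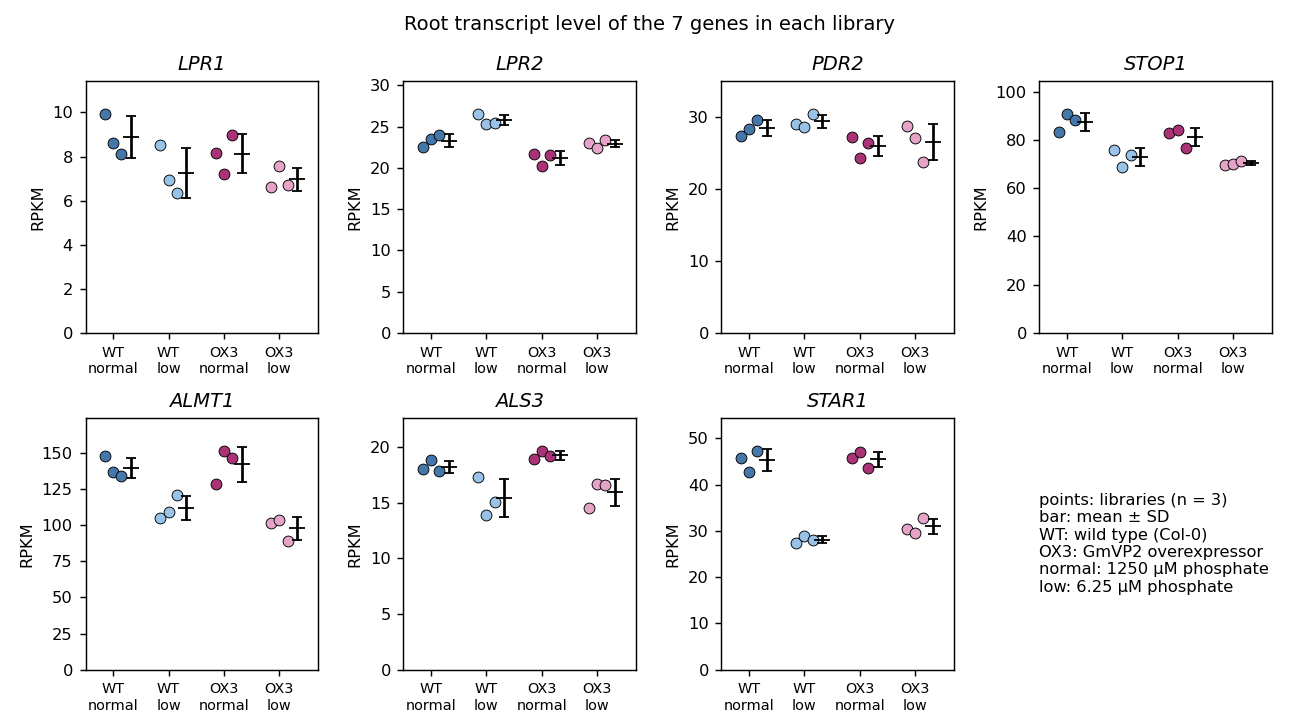
RPKM of each of the 7 genes in every library (points) with the mean and SD of the 3 libraries of a group (black), each panel with its own axis from 0. STAR1 libraries at low phosphate lie between 27.5 and 32.8 RPKM, all below those at normal phosphate, while LPR1 and PDR2 libraries overlap between treatments.

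Of the 7 genes, 5 were called in the wild type at low against normal phosphate, 1 higher and 4 lower, and 4 were called in OX3, all lower. Of all tested genes 46.0% and 47.0% were called, and 21.6% and 23.8% of all tested genes were called lower. A change at low phosphate is therefore common, and the count alone does not set the 7 apart. STOP1, ALMT1, ALS3 and STAR1 fell in both genotypes, LPR2 rose in the wild type, and LPR1 and PDR2 did not pass the test in either. The median log2 change of the 7 was -0.26 in the wild type and -0.20 in OX3, against 0.019 and -0.017 over all tested genes. In the wild type the number called was 3 without replicate 3 at normal phosphate, replicate 3 at low phosphate or replicate 4 at low phosphate, since LPR2 and ALS3 lost their calls. Libraries of the compared groups did not overlap for 5 of 7 genes in the wild type and for the same 5 (LPR2, STOP1, ALMT1, ALS3 and STAR1) in OX3, against 53.0% and 57.4% of all tested genes.

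**Figure D2:**
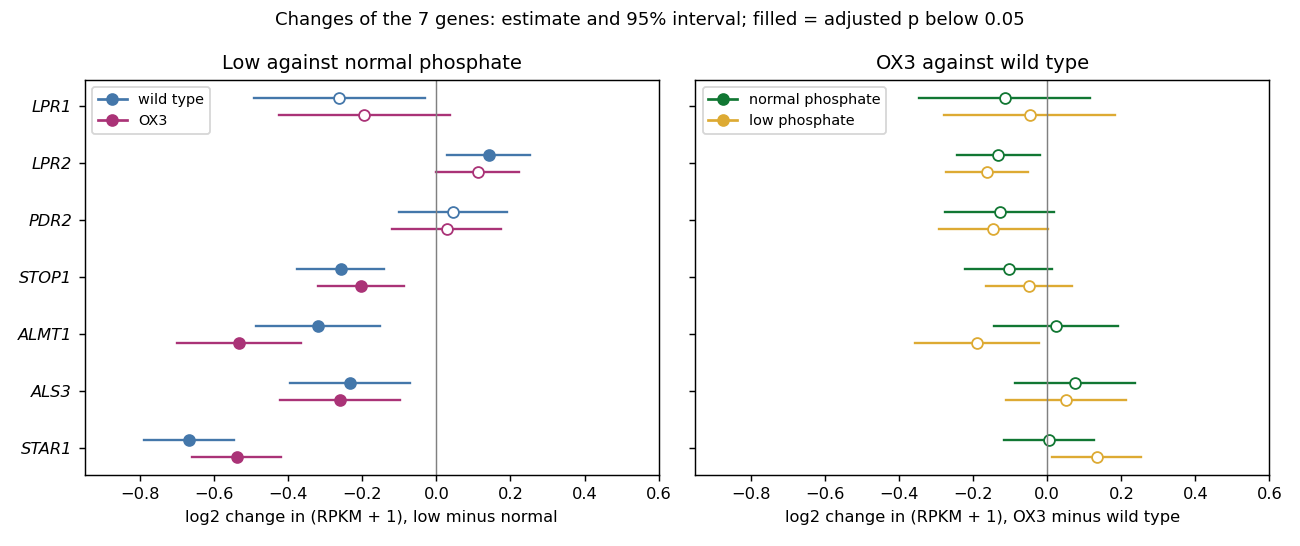
Log2 change in (RPKM + 1) with its 95% interval for low minus normal phosphate (left) and for OX3 minus wild type (right); filled points passed an adjusted p below 0.05. STOP1, ALMT1, ALS3 and STAR1 lie below 0 and are filled in both genotypes on the left, and no point on the right is filled.

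LPR1 (AT1G23010, chromosome 1, 8147118 to 8149891, plus strand), the ferroxidase whose loss lets roots keep growing on low phosphate, was measured at 9.94, 8.61 and 8.12 RPKM in the wild type at normal phosphate and at 8.54, 6.94 and 6.33 RPKM at low phosphate. In OX3 the libraries gave 8.17, 7.23 and 8.99 RPKM at normal and 6.61, 7.55 and 6.73 RPKM at low phosphate. Low phosphate libraries tended to the bottom of the range, but 1 of them lay inside the normal range in each genotype. The log2 change was -0.26 ± 0.11 (SE; 95% interval -0.49 to -0.032, adjusted p = 0.0604, limma) in the wild type and -0.20 ± 0.11 (adjusted p = 0.155) in OX3, so LPR1 was not called. Without wild-type low replicate 2, the highest of its group, the wild-type change was -0.37 with an adjusted p of 0.0106, and without wild-type normal replicate 4 it was -0.32 with an adjusted p of 0.0489. Over all libraries left out 1 at a time, the wild-type change ran from -0.37 to -0.18 and its adjusted p from 0.0106 to 0.233. FRO3 overlaps LPR1 on the opposite strand over 24 bases, 1.05% of its exons. FRO3 had a log2 change of -0.26 in the wild type (adjusted p = 0.0833, limma) and went from 9.26 ± 0.66 to 9.15 ± 1.4 RPKM in OX3 (SD, n = 3).

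LPR2 (AT1G71040, chromosome 1, 26796725 to 26800483, minus strand), the close relative of LPR1 with a partly shared role, went the other way. It stood at 22.5, 23.5 and 23.9 RPKM in the wild type at normal phosphate and at 26.5, 25.4 and 25.5 RPKM at low phosphate. In OX3 it stood at 21.7, 20.2 and 21.6 RPKM, and at 23.0, 22.5 and 23.4 RPKM at low phosphate. Low libraries were above normal libraries in both genotypes, by little. In limma the log2 change was 0.14 ± 0.052 (SE, adjusted p = 0.0383) in the wild type and 0.11 ± 0.052 (95% interval -0.00051 to 0.22, adjusted p = 0.0953) in OX3. The wild-type call was lost without wild-type normal replicate 2 or 3, any of the 3 wild-type low libraries, or OX3 normal replicate 4, with adjusted p values of 0.0514 to 0.130 and log2 changes of 0.12 to 0.15.

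The level of LPR2 over that of LPR1, on the RPKM scale, was 2.64 ± 0.35 (SD, n = 3) in the wild type at normal phosphate and 3.59 ± 0.46 at low phosphate. In OX3 the ratio was 2.62 ± 0.20 at normal and 3.31 ± 0.29 at low phosphate. The lowest library at low phosphate gave 3.11 in the wild type and 2.97 in OX3, above the highest at normal phosphate, 2.95 and 2.79. This ratio was formed after the values were seen and was given no test.

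PDR2 (AT5G23630, chromosome 5, 7960478 to 7968197, minus strand), the P5-type ATPase that restrains LPR1, had the smallest phosphate change of the 7. It was measured at 27.4, 28.4 and 29.6 RPKM in the wild type at normal phosphate, at 29.1, 28.7 and 30.5 RPKM at low phosphate, and in OX3 at 27.2, 24.4 and 26.3 RPKM and at 28.8, 27.1 and 23.8 RPKM. Treatments overlapped in both genotypes. Its log2 change was 0.045 (95% interval -0.10 to 0.19, adjusted p = 0.628) in the wild type and 0.028 (-0.12 to 0.18, adjusted p = 0.766) in OX3.

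STOP1 (AT1G34370, chromosome 1, 12550339 to 12552629, plus strand), the zinc finger transcription factor of acid and aluminium tolerance, fell at low phosphate. It was measured at 83.1, 90.7 and 88.3 RPKM in the wild type at normal phosphate and at 75.9, 68.9 and 73.9 RPKM at low phosphate. In OX3 the values were 82.9, 84.0 and 76.8 RPKM, and 69.8, 69.9 and 71.4 RPKM at low phosphate. Every low library lay below every normal library in its genotype. This gave a log2 change of -0.26 ± 0.055 (SE, adjusted p = 0.0013) in the wild type and -0.20 ± 0.055 (adjusted p = 0.00687) in OX3. A non-coding gene on the opposite strand, AT1G06753, shares 49 exon bases with STOP1, 2.55% of its length; it fell too, by 0.49 log2 units in the wild type (adjusted p = 0.0313) and by 1.02 in OX3 (adjusted p = 0.000217). It held 24 to 75 reads in a group of 3 libraries. The sources used here do not say whether reads were counted by strand, so reads in the shared bases cannot be assigned.

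ALMT1 (AT1G08430, chromosome 1, 2658602 to 2661310, plus strand), the malate channel that STOP1 activates, fell as well. The wild type gave 148, 137 and 134 RPKM at normal phosphate and 105, 109 and 121 RPKM at low phosphate. OX3 gave 128, 151 and 146 RPKM at normal phosphate and 101, 103 and 88.7 RPKM at low phosphate. Normal libraries were above all low libraries in each genotype, and the lowest ALMT1 value of the 12 was an OX3 library at low phosphate. The log2 change was -0.32 ± 0.078 (SE, adjusted p = 0.00368) in the wild type and -0.53 ± 0.078 (adjusted p = 5.62e-05) in OX3. The difference between these responses was -0.21 (95% interval -0.45 to 0.023, adjusted p = 0.736) and was not called. It was the largest in size of the 7, with STAR1 next at 0.13 (95% interval -0.044 to 0.30, adjusted p = 0.756).

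ALS3 (AT2G37330, chromosome 2, 15669131 to 15670187, plus strand), the membrane part of the ABC transporter complex that limits STOP1, fell as STOP1 did. Its libraries gave 18.0, 18.8 and 17.8 RPKM in the wild type at normal phosphate, 17.3, 13.9 and 15.0 RPKM at low phosphate, and in OX3 18.9, 19.7 and 19.2 RPKM and 14.6, 16.7 and 16.6 RPKM. The groups did not overlap, although 1 wild-type low library came within 1 RPKM of the normal ones. In limma the log2 change was -0.23 ± 0.075 (SE, adjusted p = 0.0202) in the wild type and -0.26 ± 0.075 (adjusted p = 0.0112) in OX3. The wild-type call was lost without normal replicate 3 (-0.21, adjusted p = 0.0680), low replicate 3 (-0.17, adjusted p = 0.0989) or low replicate 4 (-0.22, adjusted p = 0.0588), and the OX3 call without low replicate 1 (-0.20, adjusted p = 0.0590). RS2Z33 overlaps ALS3 on the opposite strand over 41 bases, 4.58% of its exons, and was not called in either genotype.

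STAR1 (AT1G67940, named ABCI17 in the table, chromosome 1, 25477670 to 25478803, plus strand), the nucleotide-binding part of the same complex, showed the largest phosphate response of the 7 in the wild type, while in OX3 it and ALMT1 differed by less than their standard errors. In the wild type it was at 45.8, 42.8 and 47.4 RPKM at normal phosphate and at 27.5, 28.9 and 28.0 RPKM at low phosphate. In OX3 it was at 45.7, 47.0 and 43.7 RPKM and at 30.4, 29.6 and 32.8 RPKM. The gap between the treatments was wider than the spread of any group. Its log2 change was -0.67 ± 0.056 (SE, adjusted p = 2.23e-07) in the wild type and -0.54 ± 0.056 (adjusted p = 2.09e-06) in OX3. Without the pseudocount, its mean RPKM at low phosphate was 0.621 and 0.681 times that at normal phosphate. AT1G67950 overlaps STAR1 on the opposite strand over 91 bases, 8.56% of its exons, with log2 changes of -0.0060 (adjusted p = 0.962) in the wild type and -0.21 (adjusted p = 0.0412) in OX3. Since STAR1 fell more than ALS3, the level of STAR1 over ALS3 went from 2.49 ± 0.20 to 1.85 ± 0.24 in the wild type and from 2.36 ± 0.076 to 1.95 ± 0.16 in OX3 (SD, n = 3), with no test.

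None of the 7 genes was called between OX3 and the wild type, at normal or low phosphate, or in the difference of the phosphate responses. Of all tested genes 3.10%, 0.0423% and 0% were called in these comparisons, so none among 7 is near those shares. At an unadjusted p below 0.05 (limma) there were 1, 3 and 0 of the 7, beside 4559, 2787 and 1351 of 18910 tested genes. For the 7, limma voom on the recovered reads gave the same counts and also called none. LPR2 was lower in OX3 by 0.13 log2 units at normal phosphate (95% interval -0.24 to -0.021, adjusted p = 0.141) and by 0.16 at low phosphate (-0.27 to -0.051, adjusted p = 0.23). ALMT1 at low phosphate was at 97.8 ± 7.9 RPKM in OX3 and 112 ± 8.4 RPKM in the wild type, a log2 difference of -0.19 (-0.36 to -0.022, adjusted p = 0.294). STAR1 at low phosphate was at 31.0 ± 1.7 RPKM in OX3 and 28.1 ± 0.72 RPKM in the wild type, a log2 difference of 0.13 (0.012 to 0.25, adjusted p = 0.305). Groups did not overlap for 3 genes at normal phosphate (LPR2 and PDR2 lower, ALS3 higher in OX3) and for 3 at low phosphate (LPR2 and ALMT1 lower, STAR1 higher), against 32.8% and 17.1% of all tested genes. For LPR1, STOP1 and ALS3 the intervals at both levels of phosphate took in 0 and ran from -0.35 to 0.24 at most.

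A list of genes that STOP1 is known to control, or that are tied to acid and aluminium tolerance, held 14 genes, of which PGIP1 has no row, and all 13 others were tested. In each genotype 9 fell and 3 rose, beside 21.6% and 23.8% of all tested genes lower and 24.3% and 23.3% higher. The median log2 change of the list was -0.71 in the wild type and -0.70 in OX3, against 0.019 and -0.017 over all tested genes. This list was chosen with earlier results of these data known, so the comparison is only a description. NRT1.1, the nitrate transporter that takes up nitrate with protons, went from 509 ± 11 to 114 ± 17 RPKM in the wild type and from 415 ± 9.3 to 105 ± 2.2 RPKM in OX3, log2 changes of -2.16 and -1.98 (adjusted p = 3.89e-11 and 9.84e-11). HAK5, the high-affinity potassium transporter, went from 84.2 ± 13 to 24.2 ± 8.0 RPKM and from 74.4 ± 7.5 to 17.6 ± 1.8 RPKM, log2 changes of -1.79 and -2.02. Both are also known to follow nitrate and potassium supply.

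The other genes of this list with the smallest p included a citrate transporter and a kinase. DTX42, the MATE citrate exporter of aluminium tolerance in roots, fell by 1.34 log2 units in the wild type (adjusted p = 2.25e-07) and by 1.33 in OX3 (adjusted p = 2.38e-07). CIPK23, the kinase that regulates AKT1, HAK5 and NRT1.1, fell by 0.71 and 0.69, and SULTR3;5, of the sulfate transporter family, by 1.34 in each genotype. The 3 genes that rose were PGIP2, GDH2 and ALS1. PGIP2, an inhibitor of polygalacturonases, rose from 0.239 ± 0.028 to 3.55 ± 0.22 RPKM in the wild type and from 0.400 ± 0.012 to 3.23 ± 0.67 RPKM in OX3, from 16 and 27 reads in all to 239 and 210. GDH2, a glutamate dehydrogenase, rose by 0.64 and 0.61, while its relative GDH1 fell by 0.55 and 0.78. ALS1, an ABC transporter of the vacuole, rose by 0.18 (adjusted p = 0.0394) and 0.19 (adjusted p = 0.0287), and lost the call without any 1 of 8 libraries in the wild type comparison and of 5 in OX3. GABA-T, the GABA transaminase, was the 1 gene not called in either genotype. GDH1, GDH2, ALS1 and GABA-T were named after their values were seen.

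**Figure D3:**
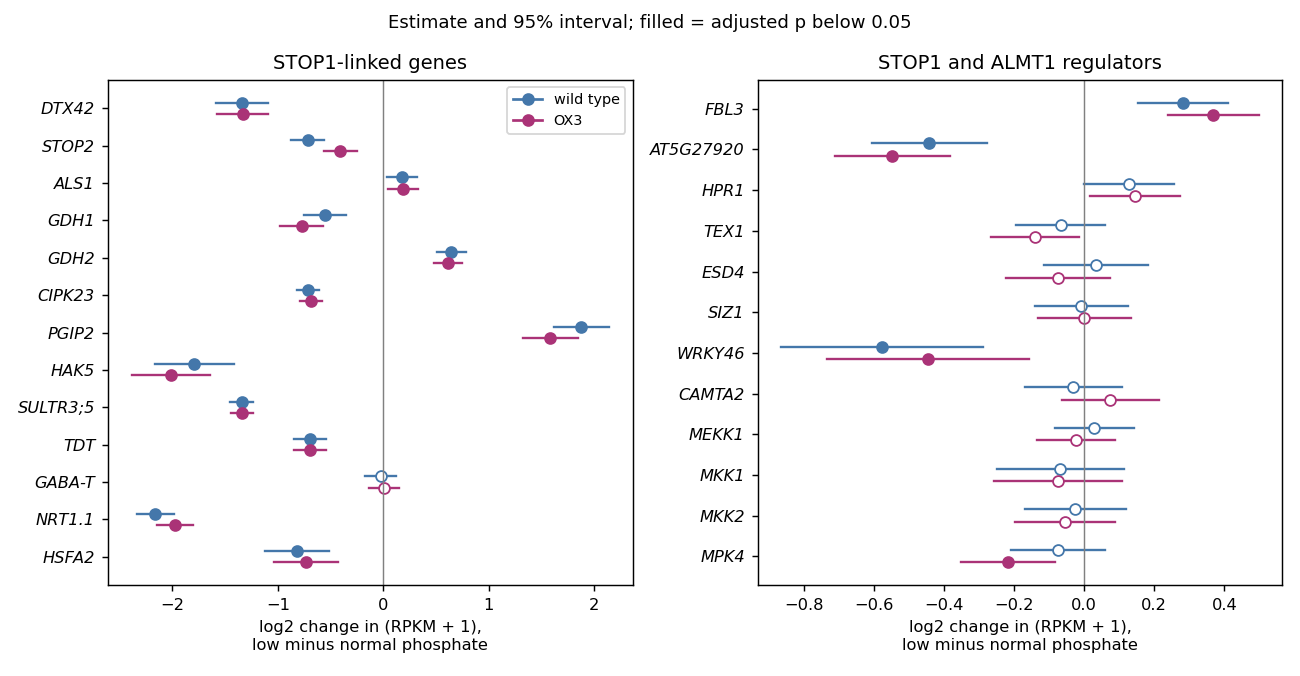
Log2 change in (RPKM + 1), low minus normal phosphate, with 95% intervals for genes linked to STOP1 (left) and for regulators of STOP1 and ALMT1 (right) in the wild type and OX3; filled points passed an adjusted p below 0.05. On the left 9 of 13 genes are filled below 0 in both genotypes, down to -2.16 for NRT1.1, while on the right most points are open and near 0.

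STOP2, the homologue of STOP1 that adds to acid tolerance, was the gene of this list called between the genotypes. This was 1 of 13 tested genes of the list at normal phosphate, where 3.10% of all tested genes were called. The list count was 2 with the compared groups alone, in voom, and without wild-type low replicate 3 or 4. At normal phosphate STOP2 stood at 48.4, 54.7 and 54.7 RPKM in the wild type and at 42.5, 41.1 and 39.0 RPKM in OX3. All OX3 libraries were below all wild-type libraries. The log2 difference was -0.36 ± 0.073 (SE, adjusted p = 0.0255), and the call was lost without wild-type normal replicate 3 or 4 or OX3 normal replicate 3 or 4, with adjusted p values of 0.0986 to 0.124. At low phosphate both genotypes were near 31 RPKM, after falls of 0.72 in the wild type (adjusted p = 1.49e-06) and 0.41 in OX3 (adjusted p = 0.000312), and the difference of these falls was 0.31 (adjusted p = 0.637).

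Among 12 regulators of STOP1 and ALMT1, 1 was higher and 2 were lower in the wild type and 1 was higher and 3 were lower in OX3, beside 46.0% and 47.0% of all tested genes called. The median log2 change of the list was -0.028 and -0.064. FBL3, an F-box protein, rose from 27.4 ± 0.87 to 33.5 ± 2.6 RPKM in the wild type (log2 change 0.28, adjusted p = 0.00144) and from 25.2 ± 0.78 to 32.9 ± 1.3 RPKM in OX3 (0.37, adjusted p = 0.000157). AT5G27920, listed with it, moved the opposite way, by -0.44 (adjusted p = 0.000249) and -0.55 (adjusted p = 3.62e-05). WRKY46, a WRKY factor known to repress ALMT1, went from 5.43 ± 1.1 to 3.28 ± 0.34 RPKM in the wild type (-0.58, adjusted p = 0.00276) and from 5.08 ± 0.40 to 3.49 ± 0.65 RPKM in OX3 (-0.45, adjusted p = 0.0138). The OX3 call of WRKY46 was lost without OX3 normal replicate 3 (adjusted p = 0.0518) or low replicate 2 (adjusted p = 0.0739). MPK4, the last kinase of a MAP kinase cascade, was lower in OX3 by 0.22 (adjusted p = 0.0109; 0.0523 without low replicate 1).

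CAMTA2, the calmodulin-binding factor known to activate ALMT1, was the regulator called between the genotypes. This was 1 of 12 regulators at normal phosphate, where 3.10% of all tested genes were called. The CAMTA2 libraries at normal phosphate gave 20.9, 23.9 and 21.9 RPKM in the wild type and 17.7, 18.0 and 18.1 RPKM in OX3. The groups did not overlap, while ALMT1 was at 139 ± 7.2 and 142 ± 12 RPKM in them. The log2 difference was -0.29 (adjusted p = 0.0336), and the call was lost without wild-type normal replicate 3 or 4 or any of the 3 OX3 normal libraries, with adjusted p values of 0.0690 to 0.127. At low phosphate CAMTA2 was at 21.7 ± 1.6 RPKM in the wild type, against 19.0 ± 0.66 RPKM in OX3, and was not called.

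Of 13 partners of LPR1 and PDR2 in the root meristem, 6 were higher and 2 lower in the wild type (median log2 change 0.17) and 4 were higher and 2 lower in OX3 (median 0.097). Over all tested genes 24.3% were higher and 21.6% lower in the wild type, and 23.3% and 23.8% in OX3, so the share called in OX3 is near that of all genes. CLE14, the peptide that triggers meristem differentiation at low phosphate through the receptors CLV2 and PEPR2, rose from 12.1 ± 0.11 to 17.6 ± 2.4 RPKM in the wild type (log2 change 0.50, adjusted p = 0.000194) and from 11.2 ± 0.57 to 20.4 ± 1.1 RPKM in OX3 (0.81, adjusted p = 1.9e-06). CLV2 rose by 0.34 in the wild type (adjusted p = 0.0091) and was not called in OX3. PEPR2 was not called in the wild type (0.20, adjusted p = 0.155), where its libraries overlapped between treatments. SHR and SCR, the factors that pattern the ground tissue and the stem cell niche, rose in OX3 by 0.44 (adjusted p = 0.00012) and 0.45 (adjusted p = 0.00471), and in the wild type by 0.33 each (adjusted p = 0.00131 for SHR and 0.0288 for SCR). The wild-type libraries of SCR overlapped between treatments, and its call was lost without normal replicate 2 (adjusted p = 0.147) or low replicate 4 (adjusted p = 0.136). The summed root tip markers given above were also higher at low phosphate in both genotypes, and a link between the 2 was not tested.

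Light and brassinosteroid factors known to act on LPR1 were in this list too. HY5, the light-signalling bZIP factor, was at 53.3, 51.3 and 48.7 RPKM in the wild type at normal phosphate and at 46.4, 40.8 and 35.5 RPKM at low phosphate. In OX3 it was at 49.5, 48.5 and 48.1 RPKM and at 49.1, 53.0 and 53.4 RPKM. Only the wild-type libraries parted by treatment, with the low ones below. This gave a log2 change of -0.32 (adjusted p = 0.00337) in the wild type and 0.087 (adjusted p = 0.379) in OX3, and their difference was 0.41 (unadjusted p = 0.00221, adjusted p = 0.610), which was not called. BES1, a brassinosteroid factor, fell by 0.22 (adjusted p = 0.0046) and by 0.43 (adjusted p = 1.53e-05), while its relative BZR1 was not called in either genotype. CRY2, a blue light receptor, rose by 0.17 in the wild type (adjusted p = 0.0123; 0.0633 without normal replicate 2) and was not called in OX3. SCR in the wild type, PEPR2, CRY2 and BZR1 were named after their values were seen.

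A pair of genes annotated as cytochrome b561 and DOMON domain proteins, a class with members that reduce iron, moved apart. AT5G35735 rose from 55.3 ± 5.3 to 74.7 ± 3.6 RPKM in the wild type (0.43, adjusted p = 9.22e-05) and from 49.0 ± 2.1 to 70.3 ± 2.0 RPKM in OX3 (0.51, adjusted p = 1.86e-05). AT3G25290 went from 76.9 ± 4.9 to 59.1 ± 0.97 RPKM in OX3 (-0.37, adjusted p = 0.00362) and from 64.7 ± 7.8 to 55.5 ± 6.6 RPKM in the wild type, where it was not called.

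Callose synthases, of which the list held 11 and 9 passed the minimum level, were lower or not called. In the wild type 3 fell and in OX3 4 fell, beside 21.6% and 23.8% of all tested genes. CALS1 was at 21.1, 23.7 and 25.4 RPKM in the wild type at normal phosphate and at 9.06, 8.60 and 9.75 RPKM at low phosphate, and at 19.7, 18.5 and 18.0 RPKM and at 9.64, 9.33 and 8.15 RPKM in OX3. Low phosphate libraries of CALS1 were near 9 RPKM in both genotypes. The log2 change was -1.26 (adjusted p = 1.12e-08) in the wild type and -0.98 (adjusted p = 1.71e-07) in OX3. CALS6 fell by 0.36 and 0.44, CALS7 by 0.37 and 0.38, and CALS3, a synthase of plasmodesmata, by 0.24 in OX3 (adjusted p = 0.0303), a call lost without any of the 3 OX3 normal libraries or low replicate 4 (adjusted p 0.0533 to 0.140). CALS4, below the minimum level and so not tested, went from 1.04 ± 0.045 to 0.108 ± 0.030 RPKM in the wild type (359 and 38 reads in all) and from 0.802 ± 0.11 to 0.0683 ± 0.013 RPKM in OX3 (279 and 23 reads), with no overlap of libraries; it was named after its values were seen. Callose itself was not measured.

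**Figure D4:**
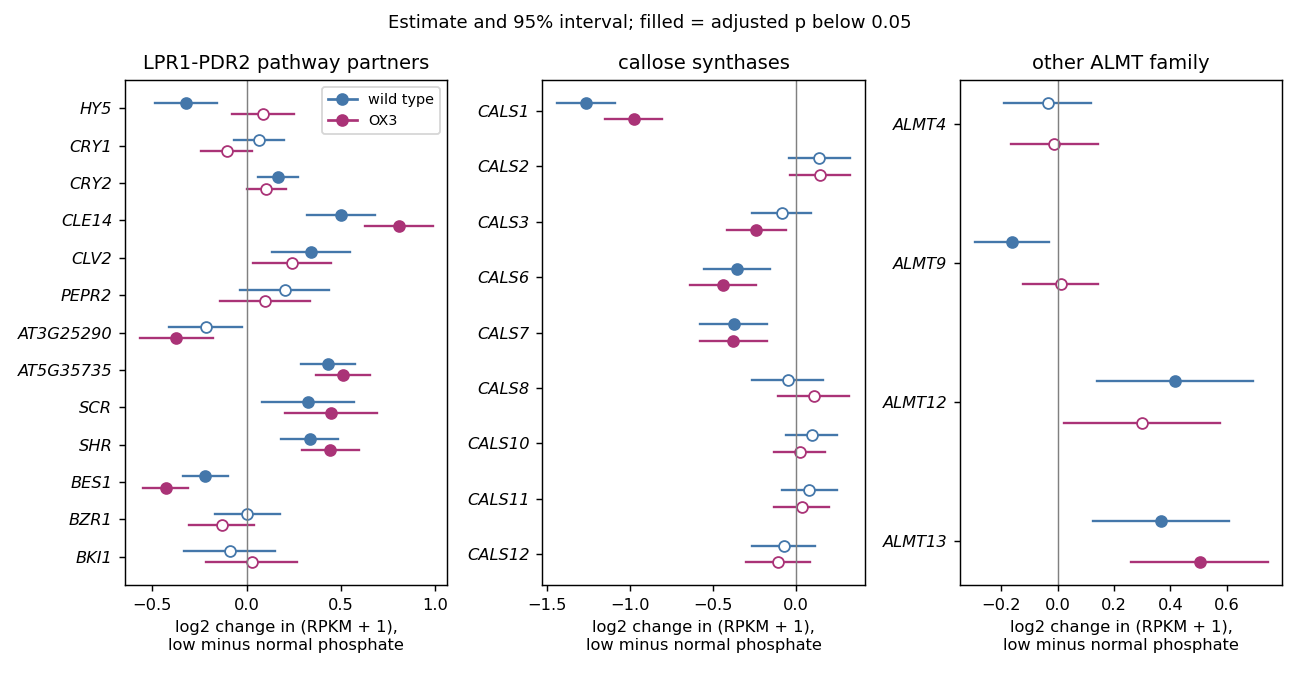
Log2 change in (RPKM + 1), low minus normal phosphate, with 95% intervals for partners of LPR1 and PDR2, callose synthases and other ALMT genes that were tested, in the wild type and OX3; filled points passed an adjusted p below 0.05, and each panel has its own axis. CLE14, SHR and AT5G35735 are filled above 0 in both genotypes, CALS1 is filled near -1, and HY5 is filled in the wild type alone.

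The rest of the ALMT family was far below ALMT1. Of 13 other genes, ALMT3 and ALMT8 have no row, and 4 of the 11 others passed the minimum level. In the wild type 2 rose and 1 fell, a count that dropped to 1 without normal replicate 3 or 4 or low replicate 4, and in OX3 1 rose. Among all tested genes 24.3% rose and 21.6% fell in the wild type. In OX3 23.3% of all tested genes rose, so the 1 of 4 there is near that share. ALMT9, a vacuolar malate-activated channel, was the next highest, at 29.8 ± 0.72 RPKM in the wild type at normal phosphate and 26.5 ± 0.90 RPKM at low phosphate (log2 change -0.16, adjusted p = 0.0449, lost without any 1 of 8 libraries). ALMT12, an anion channel of guard cells, rose from 1.77 ± 0.34 to 2.69 ± 0.41 RPKM in the wild type (0.42, adjusted p = 0.0165; 0.0799 without normal replicate 4 and 0.0783 without low replicate 4). ALMT13 rose from 1.76 ± 0.32 to 2.55 ± 0.31 RPKM in the wild type (0.37, adjusted p = 0.0157; 0.0796 without normal replicate 3 and 0.0652 without low replicate 2) and from 1.98 ± 0.13 to 3.23 ± 0.34 RPKM in OX3 (0.50, adjusted p = 0.00203). ALMT2 held 6 reads in the wild type at normal and 30 at low phosphate over 3 libraries. The share of 50-base windows from the exons of ALMT1 that occurred elsewhere in the genome was 0.0%, rounded to 1 decimal. It was 0.0% for each other of the 7 genes too.

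The 3 genes whose profile over the 12 libraries was most like that of ALMT1 were AT5G50180, MTP11 and GAPCP-1. Likeness was the root mean square difference of log2(RPKM + 1) after each gene's mean was taken away, and it was 0.0607, 0.0670 and 0.0776, against a median of 0.281 over all tested genes. For LPR1 they were MSRB1, SAHH2 and AT1G29380, at 0.0805, 0.0822 and 0.0855, against a median of 0.234. Libraries share depth and treatment, so a small difference over 12 points is a description, and no p is given.

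**Figure D5:**
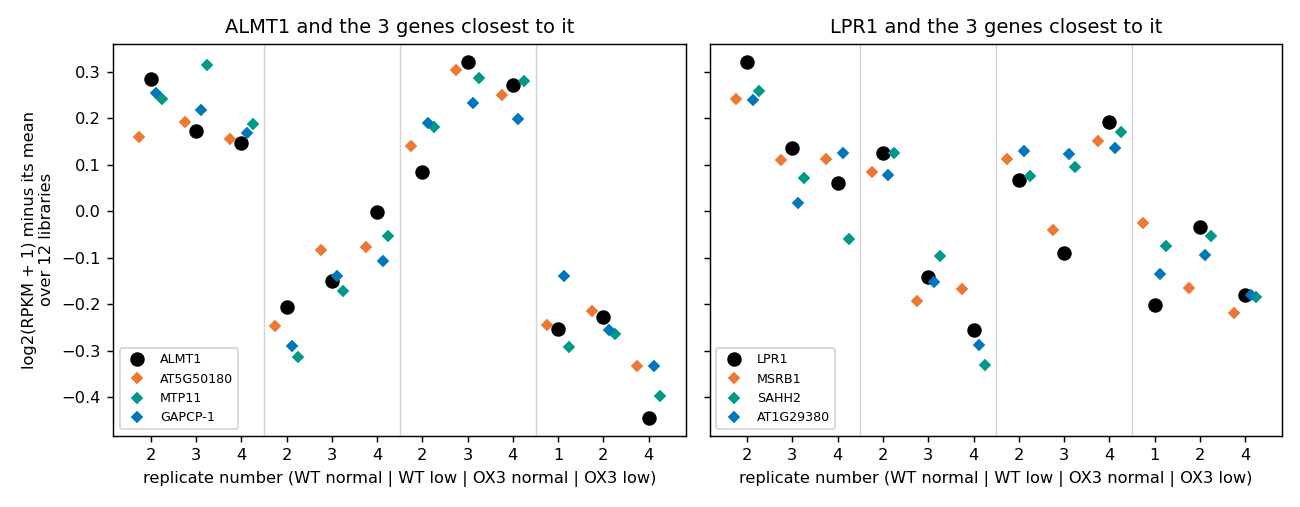
Log2(RPKM + 1) minus its mean over the 12 libraries for ALMT1 (left) and LPR1 (right), large circles, with the 3 genes closest to each, small diamonds; libraries are grouped by genotype and treatment. ALMT1 and its 3 neighbours lie above 0 in all normal phosphate libraries and at or below 0 in all low ones, while LPR1 overlaps between treatments in both genotypes.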

How the data were processed

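A single table of RPKM for 12 libraries was deposited by the authors, and its unit was taken from the values. HTSeq 0.6.0 and TAIR10 are named, without their role, in the submitters' processing notes; aligner, strand setting and filters are not given in the sources used here. Whole reads were recovered as RPKM times union exon length in TAIR10.1 and library total: 99.5% of genes per library, and 25547 of 25941 in every library, came within 0.01 of a read. Of the identifiers, 25688 matched TAIR10.1 and 25683 had the same coordinates.

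Testing used limma 3.58.1 (R 4.3.3), with its trend option, on log2(RPKM + 1) of the 18910 genes that averaged 1 RPKM or more. All 4 groups entered 1 fit with 5 contrasts, two-sided, adjusted by the Benjamini-Hochberg method over all tested genes. The pseudocount of 1 enters all log2 changes, which are understated for low genes. Scripts were tested on simulated data. Replicates of a group are separate libraries by their labels, which do not say whether plants were separate, so p-values measure the spread between these libraries, which may be technical. No pair of libraries agreed within sampling noise (chi-square per degree of freedom 2.61 to 10.8).

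Alternatives were a pseudocount of 0.1, median-ratio size factors, testing without the filter, the replicate number as a block, the compared groups alone, limma voom on recovered reads, and leaving out each of 12 libraries. The 7 genes and 8 lists were chosen with earlier results of these data known. Named from each list were all called genes of a comparison or, above 6, the 6 with the smallest adjusted p; for ALMT1 and LPR1 the 3 most alike genes; and IPS1. No protein sequences were used here.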

Additional observations from a re-analysis of the deposited data

How the results depend on the processing

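Over the 7 genes and 5 comparisons, 35 results gave 623 values under the alternatives (the compared groups alone cannot give the difference of responses). Of these values, 604 kept their side of the threshold, 15 lost the call and 4 gained it, with 5 results involved. In 0 cases did a called value change sign. Some uncalled values did, such as LPR1 between the genotypes at low phosphate (-0.13 to 0.060 with 1 library left out). STOP1, ALMT1 and STAR1 kept their wild-type calls throughout. LPR1 in the wild type was called with the replicate block (-0.26, adjusted p = 0.0481) and in voom (-0.30, adjusted p = 0.0397), and its log2 change ran from -0.37 to -0.18 when 1 library was left out. LPR2 in the wild type lost its call with median-ratio size factors (0.13, adjusted p = 0.0741), with the block (0.14, adjusted p = 0.0682) and with the compared groups alone (0.14, adjusted p = 0.0783), and ran from 0.12 to 0.16 with 1 library left out. ALS3 ran from -0.31 to -0.17 in the wild type and from -0.29 to -0.20 in OX3. The number of the 7 called ran from 3 to 6 in the wild type with 1 library left out; in OX3 the block left 2, as STOP1 (-0.19, adjusted p = 0.0535) and ALS3 (-0.21, adjusted p = 0.0798) lost their calls.

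Same-numbered libraries did not deviate together (correlations of -0.048, -0.055 and -0.040 in the wild type, and 0.076 and -0.036 in OX3, which shares only numbers 2 and 4 between treatments), so the replicate number is not taken as a pairing. Differently numbered libraries of the 2 treatments gave -0.086 to 0.14 in the wild type and -0.12 to 0.15 in OX3. Whether libraries share a batch under other numbers was not tested. Genes called between the genotypes at normal phosphate numbered 152 with no filter, 225 with the block, 1087 with the compared groups alone and 1132 in voom, and 8 to 1059 with 1 library left out. At low phosphate they numbered 5 with median-ratio size factors, 2 with the compared groups alone and 3 to 196 with 1 library left out, and the difference of responses gave 0 to 1. The cause of these shifts was not tested. STOP2 and CAMTA2 lost their genotype calls with no filter (adjusted p = 0.0531 and 0.0546) and with the block (0.0503 and 0.0707). With the block, phosphate calls were lost for MPK4 and CALS3 in OX3 (0.0966 and 0.0577), ALMT9 in the wild type (0.0611) and ALS1 in both (0.0646 and 0.165). ALS1 also lost them with median-ratio size factors in the wild type (0.0614) and with the compared groups alone in OX3 (0.0510). SCR in the wild type lost its call with no filter (0.0521) and with the compared groups alone (0.0658). The OX3 root tip marker count was 5 with the block, and the wild-type root hair and endodermis count was 2 with the compared groups alone. Depth limits ALS3 (241 to 343 reads) and LPR1 (261 to 465 reads) most.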
